A study of Mus musculus with 8 samples.

Results

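Neutrophils carry antimicrobial proteins in granules, and 10 neutrophil genes, 9 for granule proteins and Hdc for an enzyme that makes histamine, were followed in mouse hearts 1 day after infarction. The 10 genes were chosen by symbol, out of 19938 genes tested: Mpo, Elane and Ctsg as azurophil granule genes, Camp, Ngp, Ltf and Lcn2 as specific granule genes, and Retnlg, Pglyrp1 and Hdc as late genes of mature neutrophils. All 10 were measured, each by a single probe that the platform annotation pairs with no other gene. Expression was measured in total heart RNA on Affymetrix Mouse Gene ST arrays. Donor mice were wild type (WT, "LM" in the sample titles) or MAFbx knockout (KO), without the ubiquitin ligase of muscle that Fbxo32 encodes. In the infarcted (MI) groups of both genotypes the left coronary artery had been tied off permanently, with RNA taken 1 day later, and the remaining groups were sham-operated. This gave 4 groups of 2 arrays each, WT and KO sham as well as WT and KO MI. The labels name neither the strain, age and sex of the mice nor the deleted part of the gene, and give no time point for the sham groups. Nor do they state that paired arrays hold RNA of different mice, so the p-values rest on the spread between arrays, which may be technical.

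Neutrophils are made in bone marrow in stages, and each kind of granule is filled with the proteins whose genes are active at that stage. Azurophil granules form first, in promyelocytes, and hold myeloperoxidase and serine proteases. Specific granules form next, in myelocytes and metamyelocytes, and the transcripts of both kinds largely disappear before the cell enters blood, while the proteins stay. Late transcripts are those that the mature, circulating cell still carries. Neutrophils are the first leukocytes to enter infarcted heart muscle.

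The deposited values are log2 expression values. Across all genes and arrays the 10th percentile was 3.03 and the median 5.78, so values between 3 and 5 lie in the low part of the scale, where a fold change is compressed and detection was not tested. The array medians lay between 5.004 and 5.253. On the second principal component KO sham replicate 1 lay at -21.2 (its partner at 15.3) and WT MI replicate 2 at -20.2 (its partner at 0.629), apart from the partner arrays, so the counts below were also made without both. Fbxo32 read 8.76 and 8.79 in WT sham, 8.35 and 8.21 in WT MI, 4.68 and 5.17 in KO sham and 5.14 and 5.46 in KO MI, low in every KO array. Cardiomyocyte markers (8 of 8 measured) averaged between 12.92 and 13.29 in every array. At a limma adjusted p under 0.05, 4 fell in WT MI and 2 in KO MI, where 15.8% and 10.3% of all genes fell.

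The sequences before the start sites were set out first, since granule genes are known to share regulators, among them C/EBP factors and PU.1. RefSeq promoter windows (assembly GRCm38.p6) matched all 10 members, and the 250 bases before each start were searched on both strands. The letters TTNNGNAA, a C/EBP pattern, occurred before 4 members, the specific granule genes Ngp, Ltf and Lcn2 and the late gene Retnlg, and before 36.8% of all 32851 promoters. The tighter pattern TTGCNNAA, which overlaps it, occurred before the same 4 members and before 9.56% of promoters. The letters GAGGAAGT, a PU.1 pattern, occurred before the azurophil genes Mpo and Elane and before 2.44% of promoters. Runx letters (AACCNCA) occurred before Retnlg and Pglyrp1 (12.6% of promoters), and a loose NF-kB pattern before Mpo, Ltf, Lcn2 and Pglyrp1 (45.8%). No pattern of the 5 occurred in these bases before Ctsg, Camp or Hdc. A match describes letters only and is not evidence of binding. The 6 sequences printed here are those before the members with the largest rises (Lcn2 and Retnlg), before the other specific granule genes that hold the C/EBP letters (Ngp and Ltf) and before the azurophil genes that hold the PU.1 letters (Mpo and Elane). Capitals mark TTNNGNAA on either strand, or GAGGAAGT in Mpo and Elane.
Lcn2, chr2:32387740-32387989, minus strand: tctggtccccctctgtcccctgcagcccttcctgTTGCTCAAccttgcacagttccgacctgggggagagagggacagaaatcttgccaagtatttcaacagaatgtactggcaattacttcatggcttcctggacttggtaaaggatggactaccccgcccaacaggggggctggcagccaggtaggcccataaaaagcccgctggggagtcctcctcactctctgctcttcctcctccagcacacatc
Retnlg, chr16:48872358-48872607, plus strand: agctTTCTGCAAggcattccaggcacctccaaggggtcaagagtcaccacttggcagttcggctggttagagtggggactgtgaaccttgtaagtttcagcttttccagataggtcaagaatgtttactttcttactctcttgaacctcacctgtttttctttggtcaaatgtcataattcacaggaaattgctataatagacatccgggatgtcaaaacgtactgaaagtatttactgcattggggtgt
Ngp, chr9:110419558-110419807, plus strand: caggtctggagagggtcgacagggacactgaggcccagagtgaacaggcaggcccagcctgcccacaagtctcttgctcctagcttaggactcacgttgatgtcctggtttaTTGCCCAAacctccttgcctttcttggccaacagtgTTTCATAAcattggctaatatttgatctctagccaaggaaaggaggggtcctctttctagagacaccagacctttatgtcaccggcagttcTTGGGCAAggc
Ltf, chr9:111019042-111019291, plus strand: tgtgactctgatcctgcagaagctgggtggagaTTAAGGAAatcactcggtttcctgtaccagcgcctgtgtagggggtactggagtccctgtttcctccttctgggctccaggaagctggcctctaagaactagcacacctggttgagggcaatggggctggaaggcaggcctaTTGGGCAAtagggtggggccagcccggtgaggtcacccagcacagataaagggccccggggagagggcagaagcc
Mpo, chr11:87793534-87793783, plus strand: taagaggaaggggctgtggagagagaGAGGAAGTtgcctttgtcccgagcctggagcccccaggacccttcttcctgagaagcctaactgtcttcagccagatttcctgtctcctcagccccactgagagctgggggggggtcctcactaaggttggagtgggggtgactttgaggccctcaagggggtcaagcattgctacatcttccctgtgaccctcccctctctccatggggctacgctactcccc
Elane, chr10:79886062-79886311, plus strand: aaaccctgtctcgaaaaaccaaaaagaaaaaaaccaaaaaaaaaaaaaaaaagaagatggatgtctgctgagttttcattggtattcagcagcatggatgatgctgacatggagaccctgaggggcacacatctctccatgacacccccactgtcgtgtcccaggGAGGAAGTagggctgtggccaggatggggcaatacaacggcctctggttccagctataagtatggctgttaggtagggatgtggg
The 8 letters TTGGGCAA stand before both Ngp (bases 11 to 4 before the start) and Ltf (bases 75 to 68), and their reverse complement TTGCCCAA stands once more before Ngp (bases 138 to 131). Lcn2 has its match at bases 216 to 209 and Retnlg at bases 246 to 239.

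The first question was how the granule genes responded to infarction in WT hearts. The 3 late genes and Lcn2 rose by 1.69 or more on the log2 scale, Ngp by 1.20 and Ltf by 0.47. Mpo, Elane, Ctsg and Camp did not pass the test. The calls of Ngp and Ltf were lost under several alternatives, given below. In all, 6 of the 10 members rose at a limma adjusted p under 0.05 and 0 fell, where 12.3% of all genes rose and 15.8% fell. All 10 lay above 0. The median log2 fold change was 2.01 over the late genes, 0.84 over the specific granule genes and 0.19 over the azurophil genes, against 0.04 over all genes tested. Without the pair of arrays that stood apart, 5 members rose.

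**Figure D1:**
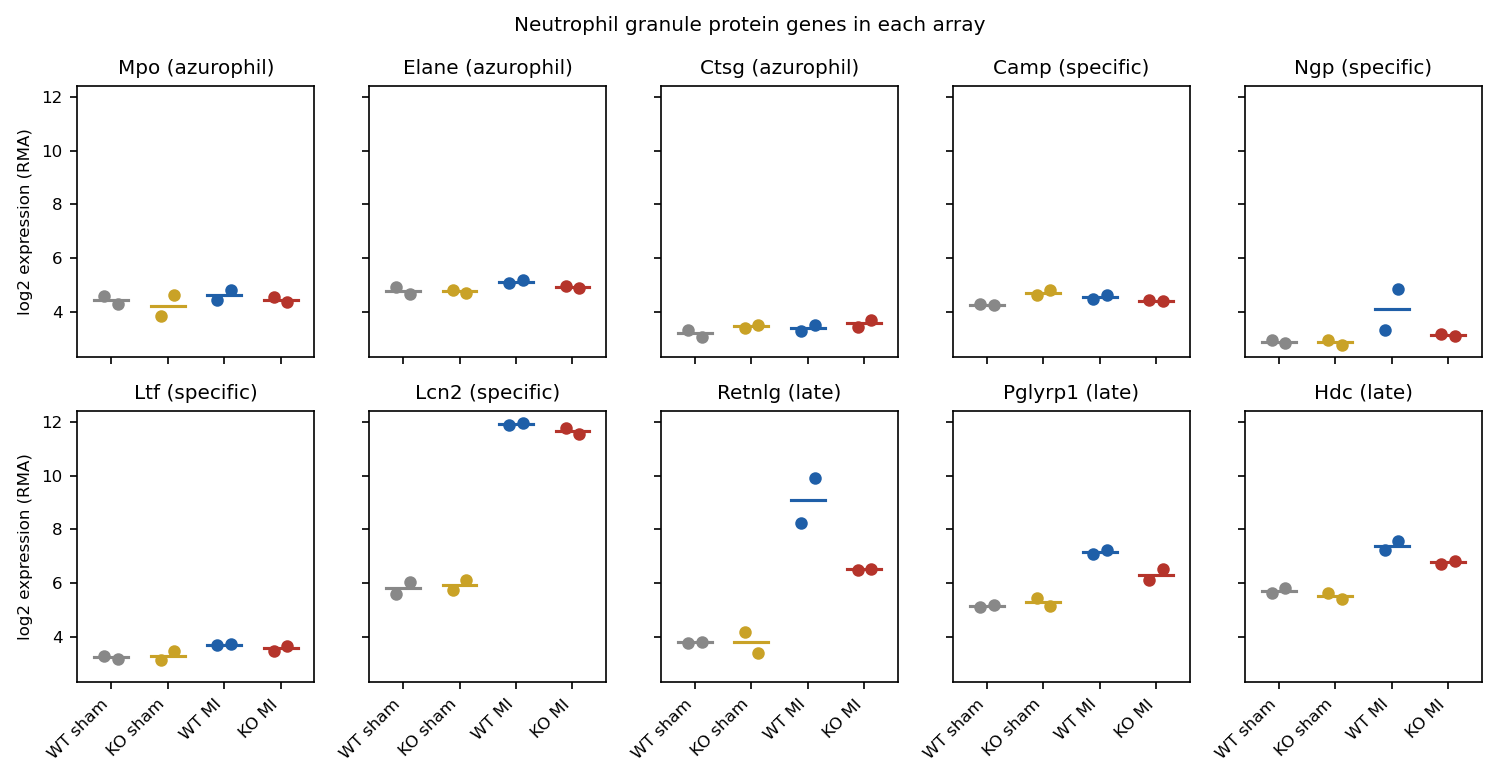
Log2 expression (RMA) of the 10 genes in each of the 8 arrays; points are arrays and horizontal bars the means of 2 arrays. Lcn2, Retnlg, Pglyrp1 and Hdc are higher in all 4 MI arrays than in any sham array, while Mpo and Ctsg overlap between sham and MI.

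Mpo encodes myeloperoxidase, which makes hypochlorous acid and is the classic azurophil granule enzyme. It read 4.57 and 4.29 in WT sham, 4.45 and 4.79 in WT MI, 3.83 and 4.61 in KO sham and 4.53 and 4.36 in KO MI. The groups overlapped, and the log2 difference between MI and sham was 0.19 in WT (95% confidence interval -0.34 to 0.72, adjusted p = 0.594) and 0.23 in KO (-0.31 to 0.76, adjusted p = 0.589). Elane, the gene of neutrophil elastase, read 4.90 and 4.65 in WT sham against 5.05 and 5.17 in WT MI, and 4.79 and 4.71 in KO sham against 4.94 and 4.88 in KO MI. Both infarcted arrays lay above both sham arrays in each genotype, by 0.34 in WT (SE 0.13, adjusted p = 0.0857) and 0.16 in KO (SE 0.13, adjusted p = 0.476), short of the threshold. Ctsg, the gene of the protease cathepsin G, read 3.32 and 3.07 in WT sham, 3.26 and 3.51 in WT MI, 3.40 and 3.49 in KO sham and 3.44 and 3.68 in KO MI. Its groups overlapped too, with differences of 0.19 in WT (-0.14 to 0.53) and 0.11 in KO (-0.22 to 0.45). The upper ends of these intervals stay below 0.8 on the log2 scale for each of the 3 azurophil genes in both genotypes, so a rise of 1 log2 unit lies outside them, as far as values in the low part of the scale can show.

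The specific granule genes divided. Camp encodes cathelicidin, the precursor of the antimicrobial peptide CRAMP. It read 4.27 and 4.23 in WT sham and 4.48 and 4.63 in WT MI, a difference of 0.31 (SE 0.12, adjusted p = 0.0967). In KO it went the other way, from 4.63 and 4.79 in sham to 4.44 and 4.38 in MI (log2 difference -0.30, SE 0.12, adjusted p = 0.126). The arrays did not overlap in either genotype, and neither difference passed the test. Ltf, the gene of the iron-binding protein lactoferrin, read 3.30 and 3.17 in WT sham and rose to 3.68 and 3.74 in WT MI (log2 fold change 0.47, SE 0.14, adjusted p = 0.0339, between 0.0182 and 0.2 under the alternatives). In KO it read 3.15 and 3.45 in sham and 3.47 and 3.67 in MI (0.27, SE 0.14, adjusted p = 0.24). The rise of Ltf in WT was lost without either WT sham array (adjusted p = 0.0882 and 0.2), without either WT MI array (0.0792 and 0.132), with cyclic loess (0.0874), with all probes tested (0.0725) and without the pair of arrays that stood apart (0.0632).

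Ngp, the neutrophilic granule protein, belongs to the cathelicidin-like proteins. It read 2.94 and 2.82 in WT sham and 3.32 and 4.83 in WT MI, and was 2.29-fold higher, a rise of 1.20 on the log2 scale (SE 0.37, adjusted p = 0.0359, between 0.000124 and 0.138 under the alternatives). Its WT MI arrays differed more from each other (SD 1.07) than those of any other member but Retnlg. Without WT MI replicate 2 the difference was 0.44 (adjusted p = 0.0825), and without WT MI replicate 1 it was 1.96. The call was also lost without any one of the WT sham, KO sham or KO MI arrays (adjusted p between 0.052 and 0.138), with all probes tested (0.109) and with only the WT arrays fitted (0.0956). In KO it read 2.93 and 2.77 in sham and 3.16 and 3.09 in MI (0.27, SE 0.37, adjusted p = 0.69). Camp, Ngp and Ltf lie on the same stretch of chromosome 9 in RefSeq, with 8 protein-coding genes between Camp and Ngp and 20 between Ngp and Ltf.

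Lcn2 rose far more than Camp, Ngp and Ltf, the other specific granule genes followed here. It encodes lipocalin-2, which binds bacterial siderophores and which other cell types also make under inflammatory signals. It read 5.59 and 6.05 in WT sham and 11.90 and 11.95 in WT MI, a 69.1-fold rise (log2 fold change 6.11, SE 0.18, adjusted p = 1.2e-07). In KO it went from 5.75 and 6.11 to 11.78 and 11.57, a 53.8-fold rise (5.75, SE 0.18, adjusted p = 3.93e-07). Its rise was the third in size among all 19938 genes in WT and the second in KO. Unlike Retnlg, it started near the median gene rather than in the low part of the scale.

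The late genes all rose in both genotypes. Retnlg, which encodes the small secreted protein resistin-like gamma of neutrophils, read 3.77 and 3.82 in WT sham and 8.24 and 9.91 in WT MI, a 38.8-fold rise (log2 fold change 5.28, SE 0.43, adjusted p = 3.02e-05). The log2 fold change was 6.11 without WT MI replicate 1 and 4.45 without WT MI replicate 2, and it passed both times. In KO it read 4.19 and 3.41 in sham and 6.49 and 6.54 in MI, a 6.56-fold rise (2.71, SE 0.43, adjusted p = 0.00208). Its sham values are in the low part of the scale, so these folds are uncertain. Pglyrp1, a peptidoglycan recognition protein that kills bacteria, read 5.10 and 5.18 in WT sham and 7.07 and 7.24 in WT MI, a 4.03-fold rise (2.01, SE 0.16, adjusted p = 2.62e-05). In KO it rose 2.04-fold, from 5.44 and 5.15 to 6.13 and 6.51 (1.03, SE 0.16, adjusted p = 0.00192). Hdc encodes histidine decarboxylase, the enzyme that makes histamine in myeloid cells and mast cells, and is an enzyme rather than a granule protein. It read 5.62 and 5.81 in WT sham and 7.24 and 7.56 in WT MI, a 3.22-fold rise (1.69, SE 0.15, adjusted p = 5.49e-05). In KO it rose 2.39-fold, from 5.63 and 5.39 to 6.70 and 6.84 (1.26, SE 0.15, adjusted p = 0.000497).

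In KO hearts 4 of the 10 members rose and 0 fell, where 10.5% of all genes rose and 10.3% fell. They were Lcn2, Retnlg, Pglyrp1 and Hdc, which also rose in WT under each of the 19 alternatives fitted for them in each genotype. The median log2 fold change was 1.26 over the late genes, 0.27 over the specific granule genes and 0.16 over the azurophil genes, against 0.01 over all genes tested. Infarcted arrays lay wholly above sham arrays for 8 of 10 members in WT and 7 of 10 in KO, and wholly below for Camp in KO, where 35% of all genes did so upward in WT and 28.1% upward and 27.5% downward in KO.

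**Figure D2:**
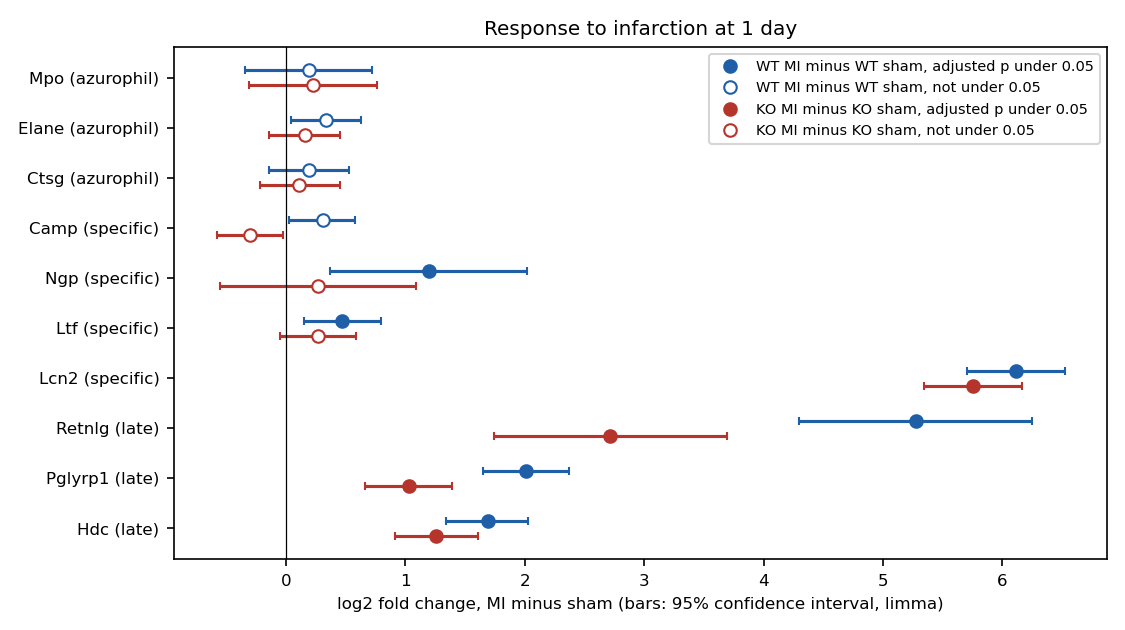
Log2 fold change of each gene between MI and sham with its 95% confidence interval from limma, WT in blue and KO in red; filled points have an adjusted p under 0.05. Lcn2 and the 3 late genes lie well above 0 in both genotypes, and the intervals of Mpo and Ctsg include 0 in both.

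The late genes were then set against genes made in marrow precursors, the 7 azurophil and specific granule genes listed here. Averaged over its members, the late class rose by 2.99 on the log2 scale in WT and the precursor class by 1.26, a gap of 1.73. In KO the rises were 1.67 and 0.93, a gap of 0.74. The gap is a description without a test, because the members were chosen with results of these data known. It describes the 7 genes listed and not granule genes at large. The 21 further genes of specific, gelatinase and secretory granules, described below, had median rises of 1.81 in WT and 1.15 in KO. Those of the late genes were 2.01 and 1.26. Lcn2 alone carried most of the precursor rise: without it the precursor mean was 0.45 in WT and 0.12 in KO, and the gap 2.54 and 1.54. The gap in KO was 0.42 without KO sham replicate 2 and 1.06 without KO sham replicate 1.

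The classes were also read array by array. Relative to the mean of their own sham group, the late genes averaged 2.63 and 3.35 in the WT MI arrays and 1.57 and 1.76 in the KO MI arrays. The 4 specific granule genes averaged 1.80 and 2.24 in WT MI and 1.52 and 1.48 in KO MI, so in KO MI replicate 1 they lay close to the late genes. Without Lcn2, the other 3 (Camp, Ngp and Ltf) averaged 0.37 and 0.95 in WT MI and 0.07 and 0.09 in KO MI. The azurophil genes averaged 0.12 and 0.36 in WT MI and 0.16 and 0.17 in KO MI, where the sham arrays spanned -0.13 to 0.13.

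**Figure D3:**
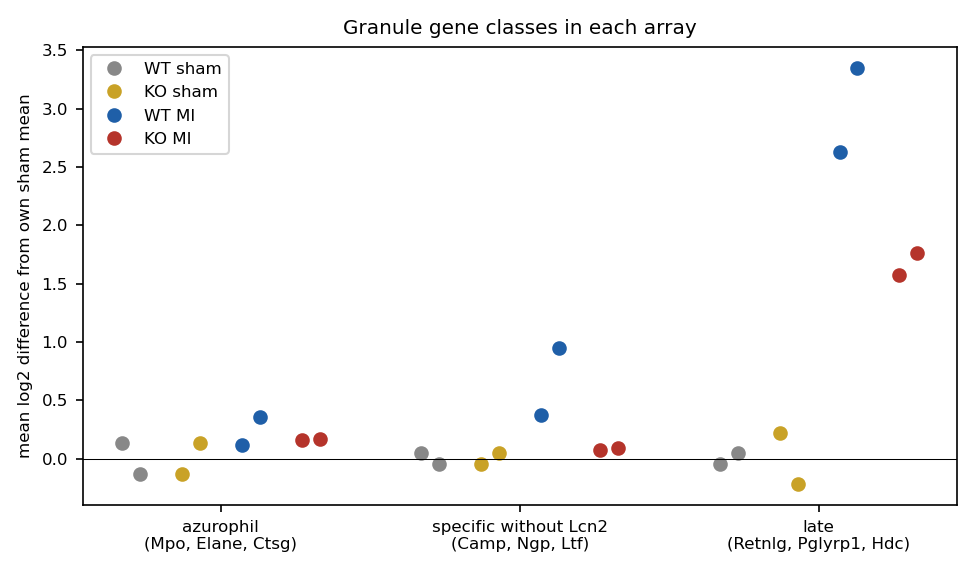
Mean log2 difference of each class from the mean of the same genotype's sham arrays, 1 point per array, with Lcn2 left out of the specific granule genes. The late genes lie at 1.57 or more in every MI array, and the azurophil genes at 0.36 or less.

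Further genes of the same granules were read from fixed lists. The counts of these and the later lists stand beside 12.3% of all genes that rose and 15.8% that fell in WT. In KO these shares were 10.5% and 10.3%. Of 10 further genes of azurophil granules and promyelocytes, 4 rose in WT and 4 in KO (5 and 5 without the pair of arrays that stood apart), and 0 fell. Those that rose in WT were Srgn, the granule proteoglycan serglycin (2.84-fold), Cd63 (2.40-fold), the elastase inhibitor Serpinb1a (3.02-fold) and the lysozyme gene Lyz2 (1.79-fold), which macrophages and other cells also express. Already in WT sham Srgn read 11.63 and 11.48, Cd63 8.90 and 8.97 and Lyz2 10.09 and 10.05, well above the median of 5.78. The cell source of their rise was not tested. Prtn3, the protease that lies next to Elane, read 4.18 and 4.43 in WT sham and 4.27 and 4.47 in WT MI (log2 difference 0.07, SE 0.19, adjusted p = 0.824). Of 21 measured genes of specific, gelatinase and secretory granules, 15 rose in WT and 15 in KO (17 and 14 without that pair), with median log2 fold changes of 1.81 and 1.15. The gelatinase granule enzyme Mmp9 rose 16.7-fold in WT and 9.11-fold in KO. The neutrophil collagenase Mmp8, a specific granule enzyme, rose 16.9-fold from WT sham values of 2.90 and 2.86 to 6.51 and 7.40, and 6.83-fold in KO. Itgam (23.0-fold), Adam8 (18.3-fold) and Chil3 (52.3-fold) rose in WT as well.

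Mature neutrophil markers rose as a whole: 21 of 21 measured in WT and 18 of 21 in KO, with medians of 3.91 and 3.21 (21 and 20 without the pair of arrays that stood apart). Their mean level per array was between 5.03 and 5.14 in sham hearts, 8.39 to 8.64 in WT MI and 7.78 to 7.96 in KO MI. S100a8 and S100a9, the subunits of calprotectin, rose 73.3-fold and 32-fold in WT, and the chemokine receptor Cxcr2 rose 72.4-fold. In whole-tissue RNA, fewer cells of a type and less RNA per cell cannot be told apart.

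Factors that drive neutrophil formation were read as well. This list shares Csf3r with the mature neutrophil markers and Kit with the mast cell and basophil markers. Of 13 listed, 8 rose and 1 fell in WT, and 6 rose and 0 fell in KO (8 and 1, and 7 and 0, without the same pair). Csf3r, the receptor of the growth factor G-CSF, rose 15.6-fold in WT and 9.27-fold in KO. The transcription factors Cebpb (3.63-fold), Spi1, which encodes PU.1 (3.64-fold), and Runx1 (3.01-fold) rose in WT and, less than 3-fold each, in KO. Cebpe, the factor needed for specific granules, read 4.78 and 4.43 in WT sham and rose to 5.25 and 5.34 in WT MI (log2 fold change 0.69, SE 0.15, adjusted p = 0.00725). In KO it read 5.07 and 4.83 in sham and 5.13 and 5.05 in MI (0.14, SE 0.15, adjusted p = 0.588). The difference of these responses did not pass (-0.55, SE 0.21, adjusted p = 0.584).

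Partners and inhibitors of the granule proteins numbered 14 measured, of which 7 rose and 1 fell in WT, and 5 rose and 1 fell in KO. Slpi, Serpinb1a and Trem1, which rose in both genotypes, were counted in earlier lists too. Serpina3n, an inhibitor of neutrophil serine proteases, rose 11.1-fold in WT and 9.26-fold in KO. Slpi, an inhibitor of elastase and cathepsin G, rose 3.51-fold and 1.60-fold. Trem1, a myeloid receptor reported to bind Pglyrp1, rose 22.3-fold and 13.3-fold. Hnmt, which inactivates histamine, fell 2.29-fold in WT (log2 fold change -1.19, adjusted p = 0.00712) and 1.78-fold in KO (-0.84, adjusted p = 0.0478), in the direction opposite to Hdc.

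Cell types other than neutrophils express some of these genes, and their markers were measured beside them. Mast cell and basophil markers, relevant to Hdc and Ctsg, had medians of 0.08 in WT and 0.03 in KO (14 of 14 measured), and their mean level per array was 4.11 to 4.19 in sham hearts and 4.12 to 4.18 after MI. In WT 1 rose and 1 fell, and in KO 1 rose and 2 fell (1 and 0 without the pair of arrays that stood apart). Among them Kit rose 2.38-fold in WT, a receptor that marrow precursors and other cells also carry. Cpa3, a mast cell protease, fell in WT from 4.46 and 4.64 to 3.74 and 3.70 (log2 fold change -0.83, SE 0.16, adjusted p = 0.00383), and Mcpt4 read 4.39 and 4.56 in WT sham and 4.03 and 4.25 in WT MI. The part of mast cells and basophils in the rise of Hdc was not tested. Of 6 eosinophil markers, among them the granule peroxidase Epx, 0 rose and 0 fell in either genotype by limma. Without the pair of arrays that stood apart 0 rose in WT and 1 in KO. An unadjusted p under 0.05 was found for 1 of 6 in WT and 1 of 6 in KO, against 38.8% and 31.9% of all genes. Monocyte and macrophage markers rose in 8 of 13 measured in each genotype, with medians of 1.79 and 1.83, and their part in the rise of Lcn2 was not tested. Of 3 measured erythroid markers 0 rose in WT or KO by limma (1 of 3 and 0 of 3 had an unadjusted p under 0.05), with medians of 0.60 and 0.14; without the pair of arrays that stood apart 2 and 1 rose. The WT MI arrays, which differed in Retnlg and Ngp, read 8.06 and 6.78 for Alas2, 6.46 and 5.72 for Slc4a1 and 3.86 and 3.95 for Epb42 (replicates 1 and 2), and the part of blood cells in that difference was not tested.

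The next question was whether the loss of MAFbx changed the granule genes. In sham hearts 0 of 10 members passed by limma, 1 had an unadjusted p under 0.05 (5.1% of all genes did), and 0.0301% of all genes passed (0.00502% higher and 0.0251% lower). Arrays did not overlap for 2 members, both higher in KO (Ctsg and Camp), where 16.6% of all genes were higher in this way and 16.1% lower. Log2 differences between KO sham and WT sham lay between -0.21 (Mpo) and 0.46 (Camp, SE 0.12, adjusted p = 0.548). Lcn2 differed by 0.11 (95% confidence interval -0.30 to 0.52) and Pglyrp1 by 0.15 (-0.21 to 0.52).

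In infarcted hearts the log2 difference between KO and WT lay below 0 for 9 of the 10 members, furthest for Retnlg, then Ngp, Pglyrp1 and Hdc, but no member passed the test over all genes by limma. Retnlg was 5.91-fold lower in KO MI than in WT MI (log2 difference -2.56, SE 0.43, 95% confidence interval -3.54 to -1.59, unadjusted p = 0.000181, adjusted p = 0.0783). Among the 19938 genes only Fbxo32, the deleted gene, had a lower difference (-2.98). Pglyrp1 was 1.78-fold lower (-0.83, SE 0.16, adjusted p = 0.125) and Hdc 1.55-fold lower (-0.63, SE 0.15, adjusted p = 0.188). In each of the 3 late genes both KO MI arrays lay below both WT MI arrays, and 8 of 10 members showed this, where 20.2% of all genes did and 24.2% lay the other way. The share of genes that passed was 0.0702% (0.0301% higher and 0.0401% lower), and 4 members had an unadjusted p under 0.05, against 11.7% of all genes.

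The precursor genes were read in the same comparison, and Ngp lay further below 0 than Pglyrp1 and Hdc. Lcn2 was 1.19-fold lower in KO MI (log2 difference -0.25, 95% confidence interval -0.66 to 0.15), Camp differed by -0.14 (-0.42 to 0.13) and Ltf by -0.14 (-0.46 to 0.18). Ngp differed by -0.95 (SE 0.37, adjusted p = 0.366), a value that was -0.19 without WT MI replicate 2 and -1.71 without WT MI replicate 1, where it passed (adjusted p = 0.0185). Mpo differed by -0.18 (-0.71 to 0.35), Elane by -0.20 (-0.49 to 0.09) and Ctsg by 0.17 (-0.16 to 0.51). These intervals do not show that the genotypes are alike.

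The adjusted p of Retnlg in this comparison ranged from 0.0129 to 0.492 over the alternatives. It passed with an intensity trend (0.0344), with array weights (0.0486), without WT MI replicate 1 (0.0129, log2 difference -3.40) and without the pair of arrays that stood apart (0.0276, log2 difference -1.73). It did not pass without WT MI replicate 2 alone (0.163, log2 difference -1.73).

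**Figure D4:**
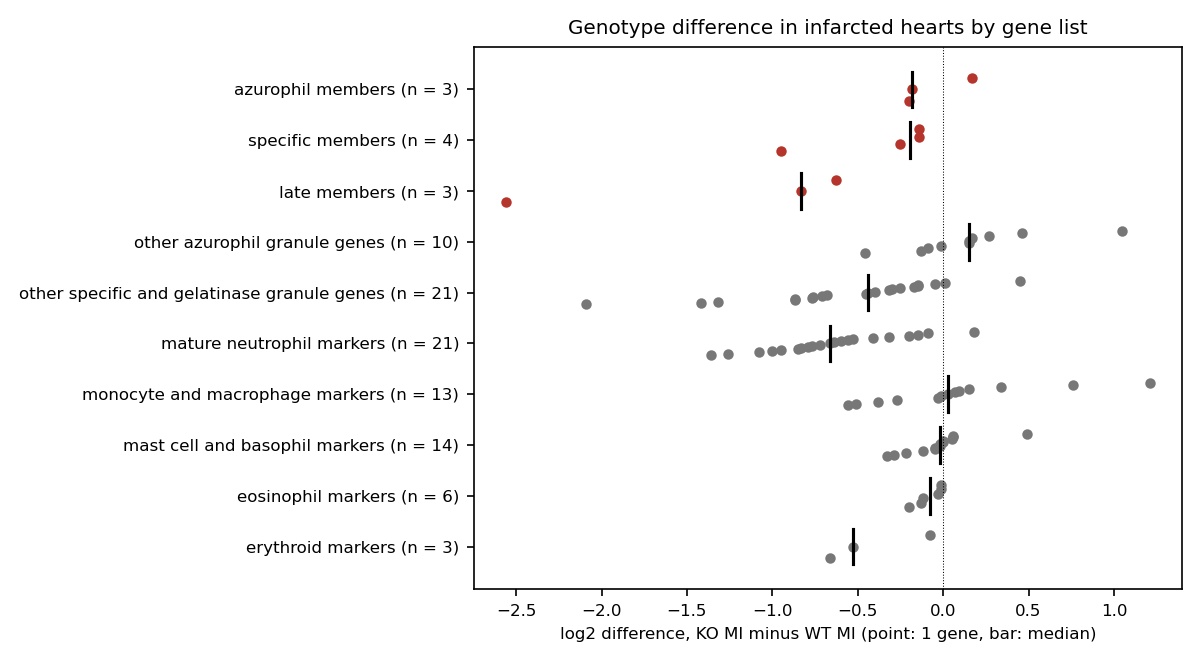
Log2 difference between KO MI and WT MI for each gene of 10 lists, 1 point per gene, with the list's median as a black bar and the granule members in red. The late members have a median of -0.83, mature neutrophil markers -0.66, and monocyte and macrophage markers 0.03. Without the pair of arrays that stood apart these medians were -0.75, -0.48 and -0.2.

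Other neutrophil genes were compared in the same way. Of 21 mature neutrophil markers 20 were below 0 in KO MI against WT MI, with a median of -0.66 (-0.48 without the pair of arrays that stood apart), and of 21 genes of specific, gelatinase and secretory granules 19 were below 0, with a median of -0.44. By limma 0 of the markers and 1 of these granule genes passed. An unadjusted p under 0.05 was found for 17 of the markers and 10 of these granule genes, against 11.7% of all genes. Of the 10 further azurophil granule genes 6 were above 0, with a median of 0.15, and 0 passed by limma (3 had an unadjusted p under 0.05). Serpinb1a (1.05, adjusted p = 0.353) and Cd63 (0.46, adjusted p = 0.195) lay above 0 and Srgn below (-0.46, adjusted p = 0.263). The protease Prtn3 differed by 0.15 (adjusted p = 0.804). Whether the values of Srgn and Cd63, high already in sham hearts, come from neutrophils was not tested. Over all genes the median in this comparison was 0. Single values included Cxcr2 (-1.36, adjusted p = 0.207), S100a8 (-1.08, adjusted p = 0.256), Mmp8 (-1.32, adjusted p = 0.168) and Csf3r (-1, adjusted p = 0.211), none of which passed. Slfn4 (-0.79, adjusted p = 0.274), Ccl6 (-0.66, adjusted p = 0.184), Clec4e (-0.6, adjusted p = 0.317) and Il1b (-0.15, adjusted p = 0.73) differed less and did not pass either. Chil3, a chitinase-like protein of neutrophils and macrophages, passed at 4.26-fold lower (-2.09, SE 0.24, adjusted p = 0.0248), a call that was lost without the pair of arrays that stood apart. The larger size of the Retnlg difference beside these was not tested as a difference between genes. Monocyte and macrophage markers had a median of 0.03, with 7 of 13 above 0, but of -0.2 without the pair of arrays that stood apart. None passed by limma. An unadjusted p under 0.05 was found for 4 of the 13, in both directions, so the median does not show that the genotypes are alike. The 3 erythroid markers lay below 0 with a median of -0.53 (-0.9 without the same pair of arrays), and 1 had an unadjusted p under 0.05 by limma. Cardiomyocyte markers had a median of 0.08, with 0 of 8 passing by limma (2 had an unadjusted p under 0.05). The largest of these differences were Pln, a regulator of the calcium pump (0.42, adjusted p = 0.225), and Mybpc3, a thick filament protein (0.42, adjusted p = 0.287). Their mean level per array was 13.07 to 13.08 in KO MI and 12.92 to 12.95 in WT MI. The part of these cell types, or of a lower number of neutrophils, in the late genes' values was not tested.

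The difference of the MI responses between genotypes asks whether the rise itself was smaller in KO. It was -2.57 for Retnlg (SE 0.62, 95% confidence interval -3.95 to -1.19, adjusted p = 0.415) and -0.98 for Pglyrp1 (SE 0.23, adjusted p = 0.41). The specific granule gene Ngp followed with -0.93 (SE 0.52, adjusted p = 0.675), between -1.69 and -0.09 under the alternatives. For Camp it was -0.60 (SE 0.17, adjusted p = 0.487) and for Hdc -0.43 (SE 0.22, adjusted p = 0.652). The value for Retnlg was -3.40 without WT MI replicate 1, -1.73 without WT MI replicate 2 and -1.35 without the pair of arrays that stood apart, and did not pass under any of the alternatives. For Lcn2 it was -0.36 (-0.94 to 0.21). By limma 0 of 10 members passed, as did 0% of all genes. At an unadjusted p under 0.05 there were 3 members, against 8.21% of all genes. This comparison and that of KO MI with WT MI share the infarcted arrays, so they are not separate evidence.

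The genes whose values over the 8 arrays lay nearest to those of Retnlg, taken relative to WT sham and measured as Euclidean distance on the log2 scale, were Il1r2 (1.85), Ccr1 (1.98), Chil3 (1.99), Mmp8 (2.01) and Cxcl3 (2.03). The nearest to Lcn2 were Timp1 (1.13), S100a8 (1.61), Slfn4 (1.75), Cxcr2 (1.94) and Cxcl2 (2.10). The nearest to Mpo were Cyb5r3 (0.29), Cstf1 (0.31), Rtf2 (0.31), Map3k15 (0.33) and Fgf2 (0.34), which are not granule genes. Like Mpo, each of them read lowest in KO sham replicate 1, an array that stood apart. In KO sham Mpo read 3.83 and 4.61, and Cyb5r3 10.03 and 10.61 (replicates 1 and 2). Genes with clone, predicted or Riken names were left out of these rankings.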

How the data were processed

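The deposited values are log2 expression values for 35556 probes on 8 arrays, deposited by the authors; the submitters' processing notes name Affymetrix Expression Console and RMA, without versions or a genome build. RMA as commonly run makes array distributions alike, which would reduce a shift shared by most genes. The platform annotation gave 21789 probes 1 gene, 1621 several and 12146 none; 21698 matched RefSeq by Entrez ID and 0 symbols changed. The probe with the highest mean stood for each of 19938 genes, with no filter on low values.

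Limma 3.58.1 (R 4.3.3) fitted the 4 group means over all arrays (4 residual and 5.57 prior degrees of freedom), two-sided, with Benjamini-Hochberg adjustment over all genes and calls at an adjusted p under 0.05. An exact permutation test of 2 arrays against 2 cannot give a p under 0.333. The code was tested on simulated data. Every member was named. Of each other list, up to 4 genes with the smallest p in WT MI were named, and 10 set genes whatever their values. The members and lists were chosen with earlier results of these data known. Listed genes without a single-gene probe (such as Fpr1, Ly6c2 and the globins) were not used here. Same-numbered arrays correlated between -0.19 and 0.16 in their deviations, which with 2 arrays a group cannot show whether they are paired. The labels do not say what a shared number means, so the main fit used no pairing. Alternatives changed the variance model (intensity trend, robust prior, array weights), the genes tested (without the lowest 33.3%, or other probe rules), the scaling (cyclic loess, median centring) or the fit (only the groups compared, replicate number as block, 2-fold minimum, each array left out). Leaving out 2 arrays together was added after seeing the data. Matplotlib 3.10.9 (Python 3.11.15) drew the figures.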

Additional observations from a re-analysis of the deposited data

Results flagged for a closer look

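Camp moved in opposite directions in the 2 genotypes, with both WT MI arrays above both WT sham arrays (4.48 and 4.63 against 4.27 and 4.23) and both KO MI arrays below both KO sham arrays (4.44 and 4.38 against 4.63 and 4.79). The difference of the responses was -0.60 on the log2 scale (SE 0.17, limma unadjusted p = 0.00653, adjusted p = 0.487), so it did not pass over all genes. The highest values of Camp were in KO sham.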

How the results depend on the processing

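With 2 arrays a group, each fit without an array assumes that the lone partner array varies as much as arrays elsewhere. The count of granule genes called in WT MI was 4 to 5 with single arrays left out, in KO MI 4 throughout, in KO against WT sham 0 throughout, in KO MI against WT MI 0 to 2, and in the difference of responses 0 throughout. In KO MI against WT MI the count was 1 with an intensity trend, 1 with array weights and 1 without KO sham array 1 and WT MI array 2 together, against 0; the gene was Retnlg. With the replicate number as a block the counts were 6, 4, 0, 0 and 0, as without it, while over all genes the count for KO MI against WT MI was 5 against 14. That count of 14 was 63 with an intensity trend, 26 with array weights, 23 without the lowest 33.3% of genes, 0 with all probes, 2 with the compared groups alone, 3 without the pair, and 2 to 8 without single arrays other than WT MI replicate 1. Over all genes in WT MI 5609 became 1670 with the 2-fold minimum and 3457 to 3462 without a WT sham array; in KO MI 4142 became 1026 and, without a KO MI array, 2246 to 2305. In sham 6 became 1 to 34, and in the difference of responses 0 became 4 with an intensity trend, 1 with cyclic loess and 3 without WT sham replicate 1. The late minus precursor gap was 1.55 to 1.91 in WT and 0.42 to 1.06 in KO with single arrays left out. It was 2.39 in WT without Hdc, and 2.54 in WT and 1.54 in KO without Lcn2. Removal of the lowest 33.3% of genes took out Mpo, Ctsg, Camp, Ngp and Ltf, and under the 2-fold minimum Ltf was no longer called in WT MI. Of 915 values of single members under the alternatives, 27 changed sign, and 0 of these were called. The low level of the azurophil and most specific granule genes and the number of arrays limit what can be seen.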

Other observations

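Values of genes next to the members in RefSeq were looked at after the members' values were known. Retnla, which lies beside Retnlg and encodes another resistin-like protein, fell where Retnlg rose: it read 4.68 and 4.54 in WT sham and 3.52 and 3.61 in WT MI (2.07-fold lower by limma, adjusted p = 0.000233), and 3.81 and 3.94 in KO sham and 3.29 and 3.39 in KO MI (1.45-fold lower, adjusted p = 0.0133). Retnla was also 1.67-fold lower in KO sham than in WT sham, which did not pass (log2 difference -0.74, SE 0.12, adjusted p = 0.181 by limma). All its values lie in the low part of the scale. Retnlb, in the same cluster, read between 2.58 and 3.32 in all 8 arrays. Lpo, the peroxidase gene beside Mpo, read between 4.19 and 4.50, and Mcpt8, beside Ctsg, between 2.93 and 3.34. Ccrl2, beside Ltf, differed between MI and sham by -0.38 in WT (adjusted p = 0.0794 by limma) and -0.33 in KO (adjusted p = 0.144). Neither passed.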
